A study of Homo sapiens with 6 samples.

Results

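This account covers 8 genes of uveal melanoma biology in 92.1 cells: the tumour suppressor BAP1, its partners ASXL1, ASXL2, HCFC1 and OGT, the splicing factor SF3B1, the translation factor EIF1AX and the antigen PRAME. They were taken by name and followed as gene sums and as single transcripts. Values for 7 of the 8 genes were analysed, among 12010 genes in all, and these 7 hold 20 of the 30624 listed transcripts. PRAME itself was not analysed here. The cells are 92.1, an established human line from a uveal melanoma, a tumour of pigment cells of the eye. The DMSO group is 3 libraries of cells given the solvent, and the LBH589 group is 3 libraries of cells given 0.1 µM LBH589, each for 24 h. LBH589 (panobinostat) inhibits histone deacetylases, the enzymes that take acetyl groups off histones. Both groups are the same single line, so its mutations are shared by treated and control cells. The labels do not say whether the libraries came from separate cultures, and the p-values therefore reflect the spread among these 6 samples, which may be technical.

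BAP1 is a deubiquitinase that takes ubiquitin off histone H2A at lysine residues where Polycomb ligases had placed it. It works only with an ASXL protein bound to it, and it also binds HCFC1, a scaffold of transcription factors, and OGT, the enzyme that adds the sugar O-GlcNAc to proteins and that cleaves HCFC1. In uveal melanoma BAP1 is often lost in tumours that spread, while SF3B1, which holds the U2 particle at the intron branch point, and EIF1AX, which helps the small ribosomal subunit find a start codon, are mutated in others. PRAME is an antigen of testis and tumours that is used as a prognostic marker, binds a CUL2 ubiquitin ligase and represses retinoic acid receptors.

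The unit is FPKM, fragments per kilobase of transcript relative to the size of the library, so levels of different genes can be compared per length. Library sums were 397200 to 422600 FPKM in DMSO and 355100 to 367200 in LBH589, and mitochondrial genes held 35.8 to 45.7% and 35.1 to 37.3% of them. The files hold no counts, and the depth is unknown. All 8 melanocyte markers checked were measured, with a summed level of 2532 to 2672 FPKM in DMSO and 720.9 to 775.8 FPKM in LBH589. At an adjusted p below 0.05 in limma 6 of them fell, where 21.6% of all genes tested did. One of the 6, DCT, averaged 0.258 FPKM in LBH589 and is listed through its DMSO level, so it had to differ. None of 5 immune markers was analysed here with a value, and of 6 fibroblast and endothelial markers COL1A1 alone had one, at 0.606 to 1.96 FPKM in DMSO and 2.83 to 4.12 FPKM in LBH589. Of 5 epithelial markers 2 were measured, with a sum of 5.33 to 8.11 FPKM in DMSO and 8.23 to 10.7 FPKM in LBH589. The part of these shifts in the results below was not tested. In bulk RNA, fewer cells of a kind and less RNA per cell cannot be told apart.

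Of the 7 gene sums, ASXL1 was the single one called, and it fell. A gene was called at a Benjamini-Hochberg adjusted p below 0.05 over all 11520 genes tested with limma, on log2(FPKM + 1). All 7 genes passed the filter of a mean of 0.5 FPKM. Among all genes 48.8% were called, 27.2% higher and 21.6% lower in LBH589, so 1 of 7 was below the background. The groups did not overlap in 4 of the 7 genes (ASXL1, HCFC1, OGT and EIF1AX), against 59.5% of all genes (33.0% higher and 26.5% lower in LBH589). SF3B1 and EIF1AX were the most abundant, at percentiles 95.4 and 94.9 of mean FPKM among the genes. OGT stood at percentile 76.6, ASXL1 at 60.0, BAP1 at 51.0, ASXL2 at 45.2 and HCFC1 at 40.4. In DMSO the means of BAP1, ASXL2 and HCFC1 lay within 1 SD of each other, and in LBH589 the ranges of mean ± SD overlapped between SF3B1 and EIF1AX, between ASXL1 and BAP1 and between ASXL2 and HCFC1.

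**Figure D1:**
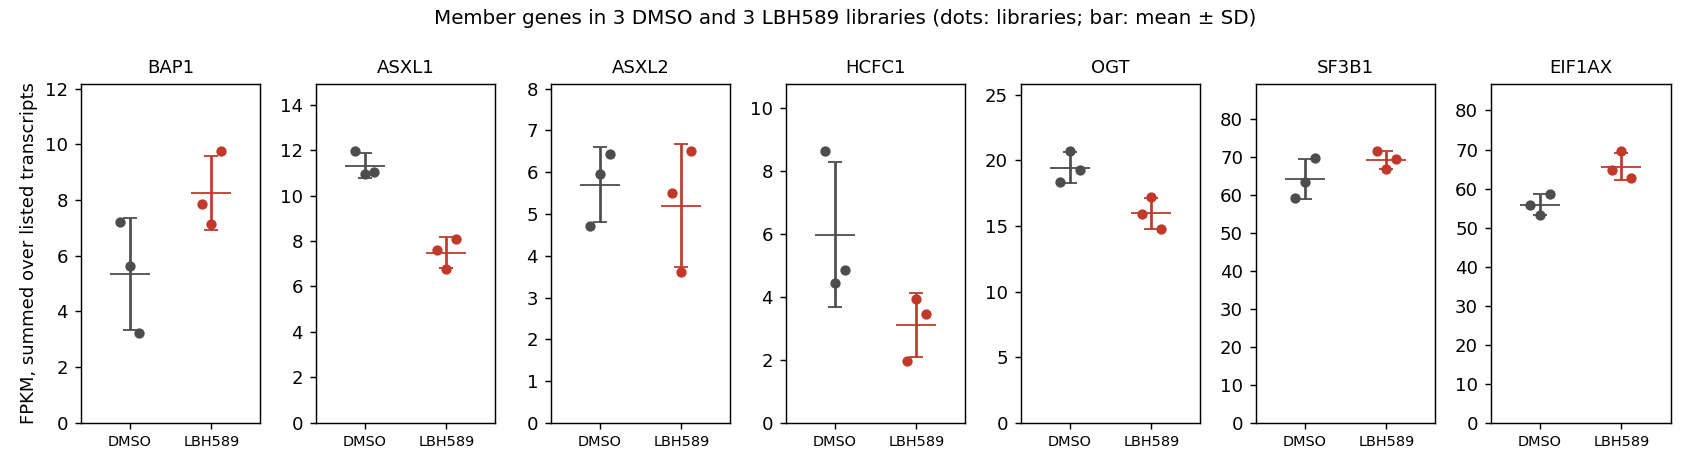
Gene FPKM, as the sum of a gene's transcripts (vertical axis, from 0, 1 scale per gene) in the DMSO and LBH589 libraries, with dots for libraries and bars for mean ± SD of 3. ASXL1 falls from 11.3 to 7.49 FPKM with no overlap, while BAP1 and ASXL2 overlap between groups.

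BAP1 (chr3:52401013-52410350, minus strand, GRCh38 in GENCODE 29) had 7.20, 5.62 and 3.21 FPKM in DMSO replicates 1 to 3 and 7.87, 7.15 and 9.74 FPKM in LBH589 replicates 1 to 3. The lowest LBH589 library lay just under the highest DMSO library, so the groups overlapped. The means were 5.34 ± 2.01 and 8.26 ± 1.34 FPKM (SD, n = 3 each). The difference of 0.59 (SE 0.27) on the log2(FPKM + 1) scale was not called (limma, adjusted p = 0.118). Without DMSO replicate 1 it was 0.80 and called (adjusted p = 0.048), and without DMSO replicate 3 it was 0.32 (adjusted p = 0.209). BAP1-202 alone, the most abundant of its transcripts, turned the direction to -0.46 (adjusted p = 0.406).

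BAP1 has 3 listed transcripts, and 2 of them carry most of the gene. BAP1-202 (3937 nt) encodes the longer protein. BAP1-201 (3434 nt) lacks 54 nt of its reading frame, or 18 codons, at chr3:52406323-52406376 (minus strand). The segment is shown because it is what separates the protein products of the 2 transcripts, with the 54 nt in capitals and 15 bases of BAP1-202 on each side.
BAP1-202: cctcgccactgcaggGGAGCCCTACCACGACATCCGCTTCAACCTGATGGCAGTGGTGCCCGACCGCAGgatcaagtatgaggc

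BAP1-201, the transcript without that segment, had listed values of 0, 2.58 and 0 FPKM in the DMSO libraries and 4.66, 5.29 and 5.23 FPKM in the LBH589 libraries. All 3 LBH589 libraries lay above all DMSO libraries, and DMSO replicate 2 was the only control with a value. The difference of 1.98 (SE 0.55) was not called (limma, adjusted p = 0.0678). Making library sums equal gave 2.09, which was called (adjusted p = 0.0498), and with a pseudocount of 0.1 it was 4.10 (adjusted p = 0.114). Without DMSO replicate 2 it was 2.60 and called (adjusted p = 0.00798), and without any other 1 library the adjusted p was between 0.156 and 0.171. BAP1-202, with the segment, had 7.19, 2.60 and 3.03 FPKM in DMSO and 2.59, 1.85 and 3.50 FPKM in LBH589. Here the groups overlapped, and the difference of -0.46 (SE 0.39) was not called (adjusted p = 0.496). As a share of the gene, BAP1-202 went from 99.9, 46.2 and 94.5% in DMSO to 32.9, 25.8 and 35.9% in LBH589, with no overlap (exact two-sided permutation p = 0.1, the smallest that 3 against 3 allow). BAP1-201 held 59.2, 73.9 and 53.6% in LBH589 replicates 1 to 3. Fitted against the rest of the gene over all transcripts, neither change was called (limma, adjusted p = 0.304 for BAP1-201 and 0.305 for BAP1-202). BAP1-205, a 578 nt fragment, had 0.00725 to 0.446 FPKM in DMSO and 0.0213 to 1.02 FPKM in LBH589.

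ASXL1 (chr20:32358330-32439319, plus strand), a partner that switches on the deubiquitinase, had 11.94, 10.96 and 11.03 FPKM in DMSO and 7.61, 6.77 and 8.11 FPKM in LBH589. Every LBH589 library was below every DMSO library. The mean fell from 11.3 ± 0.547 to 7.49 ± 0.677 FPKM (SD, n = 3 each), a difference of -0.54 (SE 0.11; limma, adjusted p = 0.00846). It was also called without each library in turn, where it ranged from -0.59 to -0.47. With library sums made equal it was -0.38 (adjusted p = 0.0427).

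None of the 4 ASXL1 transcripts was called (limma, adjusted p from 0.285 to 0.969, unadjusted p of 0.116 or more). The 3 long ones exchanged their values between libraries of one group. ASXL1-210 had 10.8, 1.98 and 1.61 FPKM in DMSO and 0, 2.82 and 0.000686 FPKM in LBH589. ASXL1-202 had 1.02, 8.46 and 0.261 FPKM in DMSO and 6.43, 3.33 and 0.851 FPKM in LBH589. ASXL1-201 had listed values of 0, 0 and 8.29 FPKM in DMSO, and 0, 0 and 6.56 FPKM in LBH589. So a different transcript led in each DMSO replicate, and the gene sum was far steadier than its parts. When the most abundant transcript stood for the gene, the difference turned to 0.43 (adjusted p = 0.752). ASXL1-203, of 812 nt, had 0.143, 0.526 and 0.879 FPKM in DMSO and 1.18, 0.616 and 0.70 FPKM in LBH589, with overlap (adjusted p = 0.509).

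ASXL2 (chr2:25733753-25878516, minus strand), the second ASXL partner, had 4.72, 5.95 and 6.44 FPKM in DMSO and 5.51, 3.6 and 6.50 FPKM in LBH589. The groups overlapped across most of their range, and the difference of -0.13 (SE 0.22) was not called (limma, adjusted p = 0.65). Without LBH589 replicate 2 it was 0.07, and with library sums made equal 0.02. With FPKM weighted by transcript length it was -0.53 (adjusted p = 0.143). Within this sum the leading transcript differed between the groups. ASXL2-203 had 4.72, 5.95 and 6.44 FPKM in DMSO, which is the whole gene, and 1.72, 0.574 and 2.10 FPKM in LBH589. ASXL2-201 was listed at 0 in all 3 DMSO libraries and had 3.78, 3.03 and 4.40 FPKM in LBH589.

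The share of ASXL2-203 was 100% in each DMSO library and 31.3, 16.0 and 32.3% in LBH589 replicates 1 to 3, with the remainder in ASXL2-201. No library of one group came near the other group (exact permutation p = 0.1, the smallest possible). ASXL2-201 was at 0 in DMSO and is listed through its LBH589 level, so the shares of the pair had to differ. They are a description, and the p is no support. Both transcripts were called in the fit over 26943 transcripts, where 15.9% were called, 8.56% higher and 7.32% lower in LBH589. They were the only 2 called among the 18 member transcripts tested. ASXL2-203 fell by 1.49 (SE 0.32) on the log2 scale (limma, adjusted p = 0.0312). ASXL2-201 rose from a listed 0 (adjusted p = 0.00189), for which no fold is given. It is listed through its LBH589 level, since the table keeps transcripts with a mean of about 0.5 FPKM in either group. With 0 in every DMSO library it therefore had to differ, and its call is no separate support for a rise.

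ASXL2-201 was also called without each library in turn (limma, adjusted p between 0.00899 and 0.0134). Its DMSO values stay at 0 in each of these fits, so they add no support. That of ASXL2-203 held without LBH589 replicate 2 (adjusted p = 0.0468) and was lost without any other 1 library (0.0505 to 0.0938), and with a pseudocount of 0.1 (0.0513). Fitted against the rest of the gene, both were called (adjusted p = 0.0226 for ASXL2-201 and 0.0207 for ASXL2-203), where 0.758% of 22949 transcripts were. Those calls were lost without any 1 library, at adjusted p of 0.0558 to 0.0933. The 2 fitted values mirror each other and count as 1 observation, and the DMSO group adds no spread to ASXL2-201 because all its values are 0. Each compares ASXL2-203 with ASXL2-201, which is listed through its LBH589 level and had to differ. Both calls against the rest of the gene are therefore no separate support. Of all transcripts tested, 1.15% were at 0 in every DMSO library and above 0 in every LBH589 library. Of 3572 transcripts above 50% of their gene in every DMSO library, 5.01% were below it in every LBH589 library, and ASXL2-203 and HCFC1-201 are among them. In both genes a transcript at 0 in every DMSO library, listed through its LBH589 level, took part of the LBH589 share.

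ASXL2-201 (8889 nt, 12 exons) and ASXL2-203 (12878 nt, 13 exons) are nearly the same RNA over the span they share. Their annotated reading frames differ in length, with 4221 nt in ASXL2-201 and 4305 nt in ASXL2-203. The frames begin after 328 and 294 nt, so that of ASXL2-203 starts further upstream. ASXL2-203 has 50 nt more at its 5′ end and 3939 nt more at its 3′ end. Inside the span they share, 8889 nt long, they differ at 1 base. In ASXL2-203, exon 3 is a 3 nt exon at chr2:25835538-25835540, and exon 4 has 109 nt. ASXL2-201 lacks the 3 nt exon, and its exon 3 (chr2:25806229-25806340) starts 3 nt earlier and has 112 nt. The substitution is C385A, counted from 1 at the 5′ end of ASXL2-201, and it lies in the reading frame. It is in capitals in the stretches below, which show how little internal sequence separates the pair.
ASXL2-201: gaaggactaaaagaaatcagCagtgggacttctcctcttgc
ASXL2-203: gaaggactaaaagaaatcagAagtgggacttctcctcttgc

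ASXL1 has the same arrangement. ASXL1-202 carries a 3 nt exon 3 at chr20:32367727-32367729, which ASXL1-210 lacks. ASXL1-210 has 1 nt more at the end of its exon 2 (84 against 83 nt) and 2 nt more at the start of its exon 3 (111 nt, against 109 nt in exon 4 of ASXL1-202). The pair differ at 1 base in a shared span of 7038 nt, G573A, counted from the 5′ end of ASXL1-210 and again in capitals.
ASXL1-210: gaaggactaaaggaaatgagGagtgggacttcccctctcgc
ASXL1-202: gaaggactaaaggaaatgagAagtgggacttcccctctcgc
How far FPKM can be divided between transcripts this alike was not tested. The ASXL1 pair moved between libraries of 1 group, and the ASXL2 pair, which also differ in their 3′ ends, moved between the groups.

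**Figure D2:**
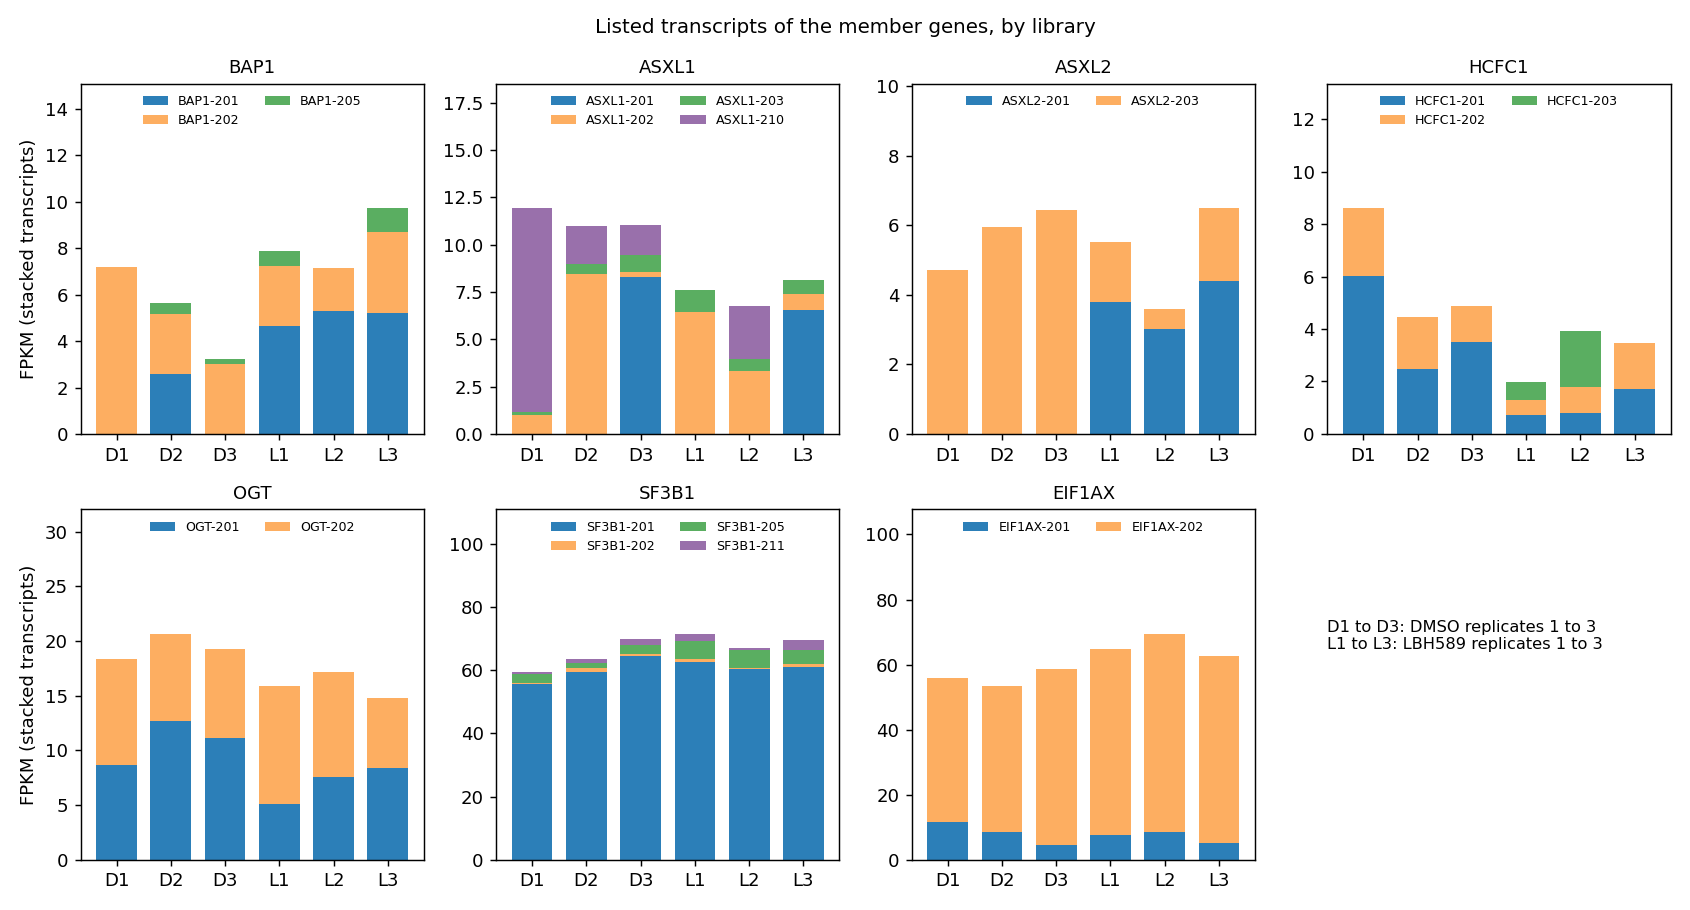
FPKM of each listed transcript, stacked to the gene sum (vertical axis, from 0), in DMSO replicates 1 to 3 (D1 to D3) and LBH589 replicates 1 to 3 (L1 to L3). ASXL2 is ASXL2-203 alone in all 3 DMSO libraries and 67.7 to 84.1% ASXL2-201 in LBH589, while the ASXL1 transcripts alternate within both groups.

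HCFC1 (chrX:153947553-153971807, minus strand), the transcription scaffold that binds BAP1, had 8.62, 4.46 and 4.87 FPKM in DMSO and 1.98, 3.93 and 3.46 FPKM in LBH589. All LBH589 libraries were below all DMSO libraries, though DMSO replicate 1 was far above the other two controls. The difference of -0.74 (SE 0.29) was not called (limma, adjusted p = 0.0825). It was called with other measures of the gene, namely quantile normalization (-0.83, adjusted p = 0.0495), the most abundant transcript (-1.24, adjusted p = 0.0385) and FPKM weighted by transcript length (-1.20, adjusted p = 0.0341). Without DMSO replicate 1 it was -0.49 (adjusted p = 0.169), and without LBH589 replicate 1 it was -0.53 (adjusted p = 0.208).

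HCFC1-201 had 6.02, 2.48 and 3.50 FPKM in DMSO and 0.726, 0.782 and 1.73 FPKM in LBH589. The groups did not overlap, and the difference of -1.24 (SE 0.35) missed the threshold (limma, adjusted p = 0.0721). Its share of the gene was 69.8, 55.8 and 71.9% in DMSO and 36.6, 19.9 and 49.9% in LBH589, and it was not called against the rest of the gene (adjusted p = 0.357). HCFC1-202 had 2.60, 1.97 and 1.37 FPKM in DMSO and 0.55, 1.01 and 1.73 FPKM in LBH589, and the groups overlapped (adjusted p = 0.309). HCFC1-203, which annotates the 3′ part of the gene in 3624 nt, was listed at 0 in all DMSO libraries and at 0.706, 2.14 and 0 FPKM in LBH589, and was too low to be tested. HCFC1-202 holds 132 nt of reading frame, or 44 codons, that HCFC1-201 lacks, at chrX:153952959-153953090. It is shown in capitals as the main internal difference between the 2 long transcripts.
HCFC1-202: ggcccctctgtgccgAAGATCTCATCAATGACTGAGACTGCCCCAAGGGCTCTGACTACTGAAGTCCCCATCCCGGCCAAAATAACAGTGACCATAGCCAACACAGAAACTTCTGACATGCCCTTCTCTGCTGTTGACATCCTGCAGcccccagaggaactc

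OGT (chrX:71533083-71575897, plus strand), the O-GlcNAc transferase, had 18.4, 20.7 and 19.3 FPKM in DMSO and 15.9, 17.2 and 14.8 FPKM in LBH589. Every LBH589 library was lower than every DMSO library, by a small margin. The means were 19.4 ± 1.17 and 16.0 ± 1.20 FPKM (SD, n = 3 each), and the difference of -0.27 (SE 0.10) was not called (limma, adjusted p = 0.0723). With library sums made equal it was -0.10 (adjusted p = 0.43). OGT-201 had 8.66, 12.7 and 11.1 FPKM in DMSO and 5.07, 7.60 and 8.41 FPKM in LBH589, without overlap (adjusted p = 0.185). OGT-202 had 9.69, 7.996 and 8.16 FPKM in DMSO and 10.8, 9.57 and 6.37 FPKM in LBH589, on both sides of the controls (adjusted p = 0.962). Against the rest of the gene neither was called (adjusted p = 0.659), and in LBH589 replicate 3 OGT-202 was also below every control. OGT-202 keeps 30 nt of reading frame, or 10 codons, that OGT-201 lacks (chrX:71536178-71536207), in capitals here.
OGT-202: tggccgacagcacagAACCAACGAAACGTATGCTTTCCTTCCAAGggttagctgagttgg

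SF3B1 (chr2:197389784-197435091, minus strand), the largest subunit of the SF3b complex, had 59.4, 63.6 and 69.9 FPKM in DMSO and 71.6, 67.0 and 69.5 FPKM in LBH589. The LBH589 libraries lay around the highest DMSO library. The means were 64.3 ± 5.28 and 69.3 ± 2.30 FPKM (SD, n = 3 each), and the difference of 0.11 (SE 0.10) was not called (limma, adjusted p = 0.382). With library sums made equal it was 0.29 and called (adjusted p = 0.0461), a scaling that moved the median of all genes from 0.08 to 0.22. The main transcript, SF3B1-201, had 55.6 to 64.4 FPKM in DMSO and 60.4 to 62.7 FPKM in LBH589 (adjusted p = 0.806).

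The largest relative difference within SF3B1 was in a short transcript. SF3B1-205 (723 nt, all of it annotated as reading frame) had 2.72, 1.495 and 2.88 FPKM in DMSO and 5.73, 5.48 and 4.597 FPKM in LBH589. All 3 LBH589 libraries were above the controls, and the difference of 0.92 (SE 0.24) missed the threshold (limma, adjusted p = 0.0584). With library sums made equal it was 1.06 (adjusted p = 0.0403). Its share of the gene went from 4.58, 2.35 and 4.13% to 8.01, 8.18 and 6.62%, while that of SF3B1-201 went from 92.1 to 93.6% in DMSO to 87.6 to 90.2% in LBH589. Neither was called against the rest of the gene (adjusted p = 0.326 and 0.363). SF3B1-202 (0.448 to 1.46 and 0.379 to 0.843 FPKM) and SF3B1-211 (0.64 to 1.75 and 0.688 to 3.09 FPKM) overlapped between groups. SF3B1-205 begins with 60 nt that SF3B1-201 lacks, at chr2:197398969-197399028, which are given in capitals because they tell it from the main transcript.
SF3B1-205: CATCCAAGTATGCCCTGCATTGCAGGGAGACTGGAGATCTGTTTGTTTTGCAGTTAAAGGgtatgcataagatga

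EIF1AX (chrX:20124518-20141844, minus strand), the X-linked initiation factor eIF1A, had 55.9, 53.3 and 58.5 FPKM in DMSO and 64.7, 69.5 and 62.7 FPKM in LBH589. Every LBH589 library was above every DMSO library. The means were 55.9 ± 2.62 and 65.6 ± 3.48 FPKM (SD, n = 3 each), and the difference of 0.23 (SE 0.09) was not called (limma, adjusted p = 0.0778). It was called with library sums made equal (0.41, adjusted p = 0.0139), with quantile normalization (0.32, adjusted p = 0.0235) and with FPKM weighted by length (0.29, adjusted p = 0.0485).

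Most of EIF1AX was EIF1AX-202, the 4427 nt transcript with the long 3′ end. It had 44.3, 44.7 and 54.2 FPKM in DMSO and 57.2, 60.9 and 57.5 FPKM in LBH589, with no overlap (limma, adjusted p = 0.149). Making library sums equal gave a difference of 0.47, which was called (adjusted p = 0.0467). EIF1AX-201 (765 nt) had 11.5, 8.63 and 4.38 FPKM in DMSO and 7.49, 8.64 and 5.23 FPKM in LBH589 (adjusted p = 0.868). EIF1AX-202 held 79.4, 83.8 and 92.5% of the gene in DMSO and 88.4, 87.6 and 91.7% in LBH589, so the proportions overlapped. EIF1AX-201 also lacks 84 nt of reading frame, or 28 codons, at chrX:20138539-20138622, shown in capitals.
EIF1AX-202: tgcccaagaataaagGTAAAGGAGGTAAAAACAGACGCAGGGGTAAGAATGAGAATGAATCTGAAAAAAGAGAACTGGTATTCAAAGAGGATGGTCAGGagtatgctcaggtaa

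Of the 18 member transcripts tested, 7 had FPKM that did not overlap between groups, 4 higher and 3 lower in LBH589, against 36.9% of the 26943 transcripts tested (19.7% higher and 17.3% lower). The shares of 8 did not overlap between groups, against 18.1% of 22662 tested transcripts of genes with 2 or more. They were both transcripts of ASXL2, BAP1-201 and BAP1-202, HCFC1-201, SF3B1-201 and SF3B1-205, and ASXL1-203. Shares of 1 gene sum to the whole, so these 8 are not independent of each other. ASXL2-201, at 0 in every DMSO library and listed through its LBH589 level, is among the 7 and had to differ. The shares of both ASXL2 transcripts had to differ with it. HCFC1-203, listed in the same way, lowers the share of HCFC1-201 in LBH589. Neither count is therefore read as a result about the members. The exact permutation p was 0.1 for each, the smallest possible.

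**Figure D3:**
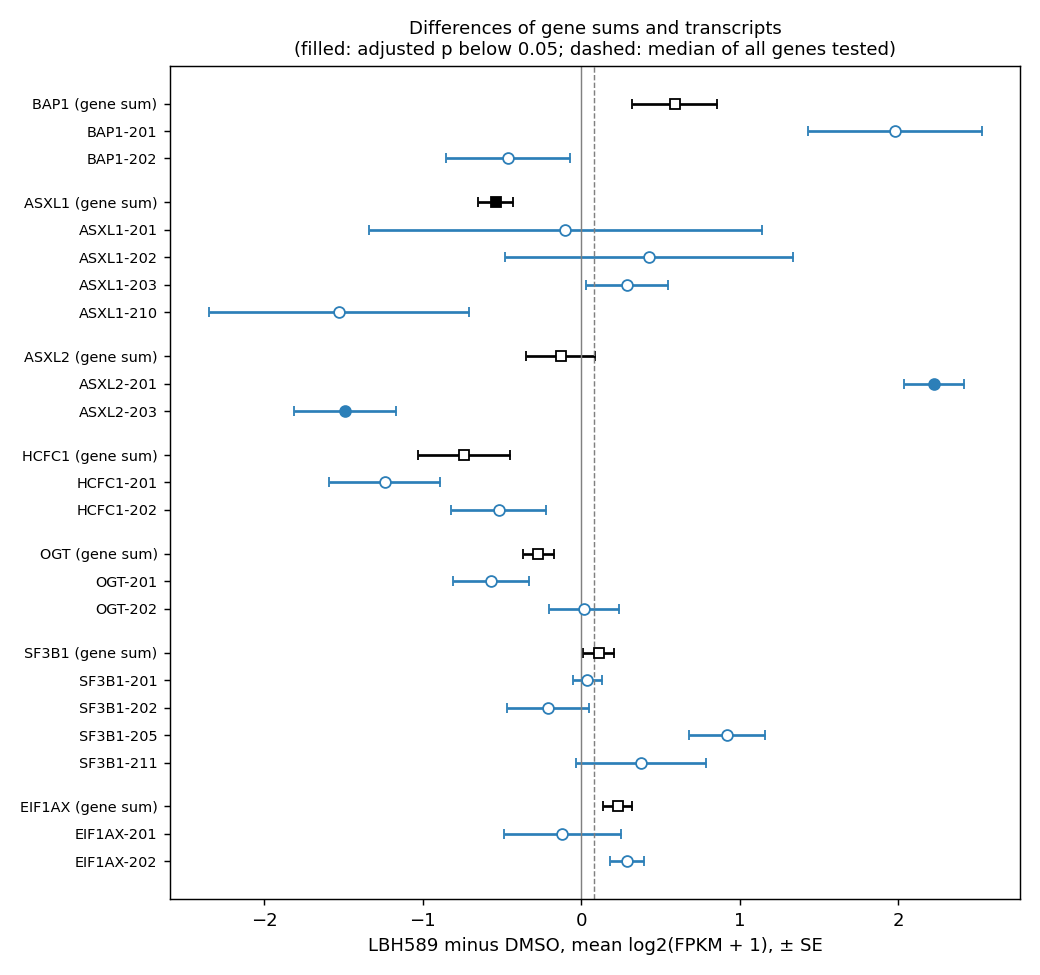
Difference LBH589 minus DMSO of mean log2(FPKM + 1) with its SE (horizontal axis) for each gene sum (squares) and each tested transcript (circles), filled where the adjusted p is below 0.05. The filled symbols are the ASXL1 sum, ASXL2-203 and ASXL2-201, whose value depends on the pseudocount of 1 because it is listed at 0 in DMSO.

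Among other partners of BAP1, 9 of 11 listed genes were measured and tested. Of these 1 rose and 2 fell, a smaller share in all than the 48.8% of all genes called (27.2% higher, 21.6% lower), and the median difference was 0.11 against 0.08 for all genes. BRCA1, the DNA repair protein after which BAP1 was named, fell from 12.3, 11.1 and 15.9 FPKM to 1.23, 1.46 and 1.22 FPKM (-2.60, limma, adjusted p = 8.4e-05). YY1, a DNA-binding factor found with BAP1 and HCFC1, fell from 20.9, 32.2 and 25.5 FPKM to 9.26, 10.1 and 10.5 FPKM (-1.29, adjusted p = 0.00137). KDM1B, a histone H3 demethylase found in the same complex, rose from 23.6, 23.3 and 27.3 FPKM to 51.4, 53.4 and 53.5 FPKM (1.07, adjusted p = 0.000323). None of these 3 genes had overlapping groups. BARD1, the partner of BRCA1, had 2.01 to 3.22 FPKM in DMSO and 3.33 to 4.67 FPKM in LBH589 and was not called (adjusted p = 0.106). There were 2 rises with library sums made equal and also without DMSO replicate 1, and 1 fall with the most abundant transcript.

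The ligases that place the ubiquitin BAP1 removes moved in both directions. Of 9 genes of Polycomb repressive complex 1, 2 rose and 4 fell, with a median of -0.05, where 48.8% of all genes were called (27.2% higher, 21.6% lower). RYBP, a subunit of variant complexes, rose from 9.35, 10.3 and 11.5 FPKM to 25.6, 23.8 and 25.2 FPKM (1.19, limma, adjusted p = 0.000334). PCGF5, a subunit of one such complex, rose from 1.73, 2.42 and 2.53 FPKM to 6.27, 7.36 and 6.38 FPKM (1.26, adjusted p = 0.000989). PCGF2 fell (-1.28, adjusted p = 0.020), as did the catalytic subunit RNF2, from 17.2, 19.9 and 20.7 FPKM to 15.1, 13.7 and 13.8 FPKM (-0.41, adjusted p = 0.0224). The count of falls depended on single libraries and on the scaling. Without any 1 library 1 or 2 fell, and with library sums made equal 4 rose and 2 fell. With the most abundant transcript 1 rose and no fall was called.

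**Figure D4:**
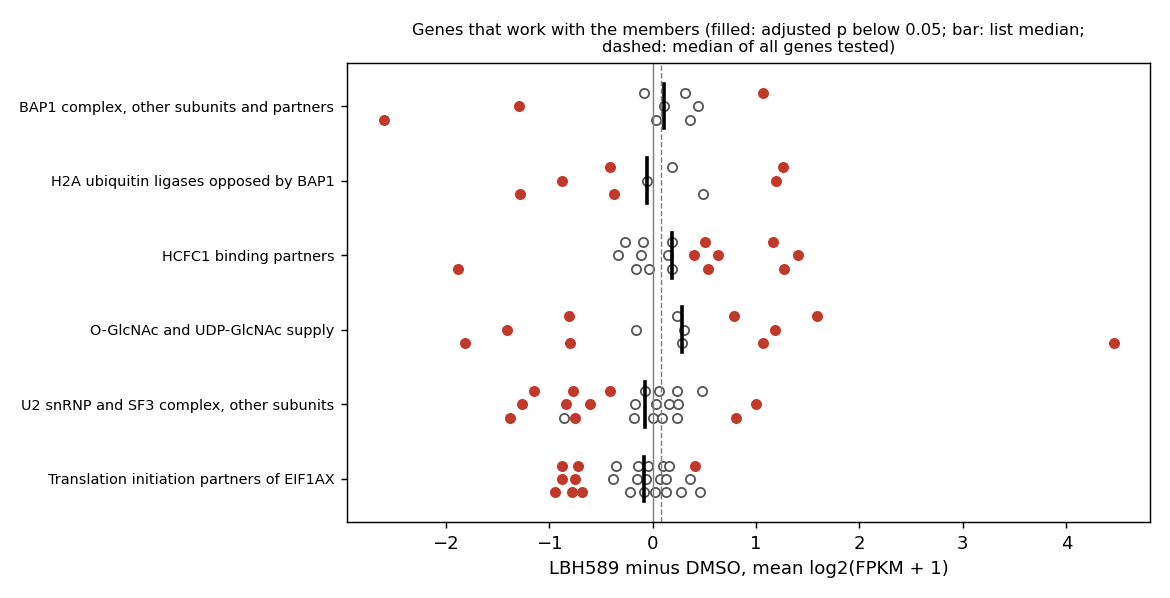
Difference LBH589 minus DMSO of mean log2(FPKM + 1) (horizontal axis) for each tested gene of 6 lists, filled where the adjusted p is below 0.05, with black bars for list medians and a dashed line for the median of all genes. Filled symbols lie on both sides in every list, and GFPT2 stands farthest right at 4.46. Among HCFC1 partners the 1 filled symbol on the left is E2F1, which is listed through its DMSO level and had to differ.

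All 17 genes listed as binding HCFC1 were tested. Of these 7 rose and 1 fell, with a median of 0.19, beside 27.2% higher and 21.6% lower among all genes, so the share called in all was close to the background of 48.8%. RBBP5, a core subunit of the histone H3 methyltransferases that HCFC1 binds, rose from 12.1, 12.8 and 14.1 FPKM to 31.0, 28.2 and 31.8 FPKM (1.16, limma, adjusted p = 0.000308). HCFC2, the paralog of HCFC1, rose from 1.08, 1.43 and 1.39 FPKM to 4.64, 4.28 and 4.72 FPKM (1.27, adjusted p = 0.000501). HCFC1 itself was lower in every LBH589 library but not called. CREB3, a membrane-bound transcription factor, rose by 1.41 (adjusted p = 0.00131). The 1 fall counted is E2F1, the S-phase transcription factor, with 6.48, 4.71 and 2.37 FPKM in DMSO and 0.327, 0.439 and 0.51 FPKM in LBH589. It averaged under 0.5 FPKM in LBH589 and is listed through its DMSO level. It therefore had to differ, and its values are a description with no test. Without any 1 LBH589 library 4 rose, and with the most abundant transcript 3 did.

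The genes of O-GlcNAc cycling and of its donor sugar gave 5 rises and 4 falls among 13, with a median of 0.28. Among all genes 27.2% were higher and 21.6% lower. GFPT2, which makes the first product of the hexosamine pathway, rose from 3.10, 2.64 and 3.31 FPKM to 82.4, 79.4 and 101 FPKM (4.46, SE 0.13, limma, adjusted p = 1.6e-05). UAP1, which makes the donor UDP-GlcNAc, rose from 18.1, 17.2 and 18 FPKM to 57.2, 54.7 and 54.2 FPKM (1.59, adjusted p = 4.8e-05). OGA, which takes the sugar off proteins, rose from 34.8, 37.9 and 41.9 FPKM to 67.7, 68.2 and 64.6 FPKM (0.79, adjusted p = 0.0011). OGT, which puts it on, was lower in each LBH589 library but not called. EOGT, a separate transferase of the secretory pathway, fell from 12.6, 10.2 and 15.3 FPKM to 3.46, 4.32 and 4.52 FPKM (-1.41, adjusted p = 0.00115). With the most abundant transcript 3 rose and 2 fell.

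Around SF3B1, 23 other genes of the U2 particle and the SF3 complexes were tested, of which 2 rose and 8 fell, with a median of -0.07. The share called was near the 48.8% of all genes, of which 27.2% were higher and 21.6% lower. DHX15, a helicase that takes spliceosomes apart, fell from 73.1, 74.3 and 73.1 FPKM to 31.7, 30.1 and 28.4 FPKM (-1.26, limma, adjusted p = 0.000101). SF3B3, a partner of SF3B1 in the SF3b complex, fell from 18, 14.3 and 13.8 FPKM to 8.27, 7.87 and 8.12 FPKM (-0.84, adjusted p = 0.00239). DDX46, the helicase that works with U2, fell by 0.60 (adjusted p = 0.00264). HTATSF1, which binds SF3B1 in the free U2 particle, rose from 50, 52.9 and 50.6 FPKM to 97.7, 113 and 98.6 FPKM (1.00, adjusted p = 0.000407). Without DMSO replicate 1 the number that rose was 4, and without any other 1 library it was 1.

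Around EIF1AX, 25 genes listed as its partners in initiation were tested, of which 1 rose and 7 fell, with a median of -0.08. Fewer were called than the 48.8% of all genes. The share that rose was below the 27.2% of all genes, and the share that fell was near the background of 21.6%. EIF2S2, a subunit of the factor that brings the initiator tRNA, fell from 143, 141 and 134 FPKM to 76.9, 76.2 and 64.2 FPKM (-0.94, limma, adjusted p = 0.000741). EIF2S3, another subunit of it, fell by 0.75 (adjusted p = 0.00176). EIF3A, the largest subunit of eIF3, fell from 141, 138 and 142 FPKM to 87.6, 88.3 and 79.7 FPKM (-0.72, adjusted p = 0.00103). EIF4G2, a scaffold for initiation without the cap-binding protein, fell from 141, 152 and 158 FPKM to 85.5, 82.1 and 76.3 FPKM (-0.88, adjusted p = 0.000655). The gene that rose is EIF1AD, which was picked out after its values were seen (0.41, adjusted p = 0.0155). It was not called without LBH589 replicate 1 or 3 or with FPKM weighted by length, and without DMSO replicate 1 the number that rose was 3.

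For PRAME, the measured neighbours are its ligase partners and the retinoic acid receptors. Of 10 such genes 2 fell and the others were not called, where 21.6% of all genes were lower and 48.8% were called. RBX1, the RING subunit of cullin ligases, fell from 34.3, 28.2 and 30.7 FPKM to 17.1, 15.9 and 16.7 FPKM (-0.86, limma, adjusted p = 0.000996). RARG, a retinoic acid receptor, fell from 1.90, 2.55 and 1.14 FPKM to 0.812, 0.314 and 0.682 FPKM (-0.82, adjusted p = 0.0273). RARA had 2.38 to 2.98 FPKM in DMSO and 3.47 to 3.76 FPKM in LBH589 and was not called (adjusted p = 0.0824), nor was RARB (adjusted p = 0.13). With library sums made equal 2 rose and 2 fell, and with quantile normalization 1 rose and 3 fell. Without DMSO replicate 1 or 2, or without LBH589 replicate 2 or 3, 1 fell.

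Among retinoic acid target genes, CYP26B1, which breaks retinoic acid down, had 0.373, 0.219 and 0.227 FPKM in DMSO and 2.06, 2.52 and 2.86 FPKM in LBH589. Of 24 other cancer-testis antigens 3 were tested. SSX1 had 5.67, 6.79 and 7.72 FPKM in DMSO and 0.375, 0.385 and 0.445 FPKM in LBH589. TKTL1 had 1.56, 1.32 and 1.86 FPKM in DMSO and was listed at 0 in all LBH589 libraries. MAGEA6 had 0.164, 0.135 and 0 FPKM in DMSO and 2.03, 1.72 and 1.37 FPKM in LBH589. These 4 genes averaged under 0.5 FPKM in one group and are listed through the other, so they had to differ, and their values are a description with no test. SSX1 and MAGEA6 have near-identical relatives with which they can share fragments, so their values are uncertain.

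The genes with the profile most like each driver over the 6 libraries were found by the root mean square difference of centred log2(FPKM + 1), among 6865 genes of at least 5 FPKM. For BAP1 they were SMAD4 (0.0844) and DDX50 (0.0931). SMAD4 had 8.44, 7.41 and 4.34 FPKM in DMSO and 10, 10.4 and 12 FPKM in LBH589. For SF3B1 they were MARCH5 (0.0249) and FKBP15 (0.0253), and for EIF1AX they were VMA21 (0.0277) and HS2ST1 (0.0325). The BAP1 neighbours were the least close of these pairs.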

How the data were processed

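The 6 libraries were made from total RNA of 92.1 cells, extracted with Trizol and prepared with an Illumina TruSeq kit, as the labels say. The authors deposited FPKM per transcript, per the file headers. The submitters' processing notes name Bowtie 0.12.2 and hg19 but give no role for either. The quantifier and annotation release: not given in the sources used here. Listed transcripts reach a mean of 0.5002 FPKM or more in DMSO or in LBH589. Depth is unknown, since low values did not resolve into steps of single fragments.

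Transcripts were named by identifier through GENCODE 29 (30504 named, 99.6%) and summed by gene. Sequences and GRCh38 coordinates come from that release, matched by transcript and never converted. Of the 20 member transcripts, 19 have the version held there, and ASXL1-202 has another. Gene sums (11520 tested) and transcripts (26943 tested) averaging at least 0.5 FPKM over the libraries were compared on the log2(FPKM + 1) scale. The tool was limma 3.58.1 in R 4.3.3, using statmod 1.5.0 for robust moderation and a mean-variance trend, and treatment was the sole covariate. Benjamini-Hochberg adjustment covered all features of each fit. Differences are LBH589 minus DMSO on that scale, which understates changes of low genes. Shares were tested by exact two-sided permutation in Python 3.11.15 with numpy 2.4.6.

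The members and lists were chosen with earlier results of these data known. The fit of a transcript against the rest of its gene (log2 ratio, pseudocount 1) was added after the data were seen, and an earlier form was dropped because it made false calls on simulated data. FPKM weighted by length was added too. Named are all members, their transcripts of at least 5% of the gene in a group, up to 4 genes per list with the smallest adjusted p, and for the drivers the 2 nearest profiles. A result that this rule takes is not reported here.

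On simulated data with 11520 genes the gene test recovered 7.46, 59.7 and 89.4% of changes of 0.5, 1 and 2 on the log2 scale, with 14 false calls. With 26943 transcripts it recovered 0, 5.97 and 48.5%, with 2 false calls. With 22242 transcripts the fit against the rest of the gene recovered 15% of changes of 2 and 70% of changes of 4, with 13 false calls. Changes were placed only in better expressed features. Few were changed (67, 67 and 66 in the gene test), while 48.8% of real genes were called. The sums of BAP1, ASXL2 and HCFC1, and all transcripts of these genes and of ASXL1, were below the level needed. So were SF3B1-202, SF3B1-205 and SF3B1-211. Recovery for them was not measured. Alternatives were the pseudocount, filters, scalings, moderation, the replicate block, left-out libraries and other ways to sum a gene.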

Additional observations from a re-analysis of the deposited data

How the results depend on the processing

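Genes called numbered 5617 and 3590 with a mean of at least 5 FPKM, where fewer genes were tested, and 4649 to 5657 without 1 library. Transcripts called numbered 4279, and 2451 with at least 5 FPKM, 1182 with the replicate block and 2603 to 3774 without 1 library, the lowest 3 being without LBH589 replicate 1 (2603), 2 (2676) and 3 (2688). Transcripts called against the rest of their gene numbered 174, and 307 with no filter, 61 with at least 5 FPKM, 0 with the replicate block in limma (2505 at an unadjusted p below 0.05) and 18 to 63 without 1 library. Making library sums equal moved the share of rises among called genes from 55.8 to 65.0% and the median from 0.08 to 0.22. With sums made equal ASXL2 was 0.02, SF3B1 0.29 and EIF1AX 0.41. With the most abundant transcript BAP1 was -0.46, ASXL1 0.43, ASXL2 -1.49 and HCFC1 -1.24. Quantile normalization gave HCFC1 -0.83 and EIF1AX 0.32, and weighting by length gave -1.20 and 0.29. The cause was not tested. Without 1 library BAP1 ranged from 0.32 to 0.80, ASXL1 from -0.59 to -0.47, ASXL2 from -0.28 to 0.07, HCFC1 from -0.90 to -0.49, OGT from -0.32 to -0.22, SF3B1 from 0.06 to 0.17 and EIF1AX from 0.19 to 0.26.

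Among transcripts the sign turned without 1 library for ASXL1-201 (-1.07 to 0.97), ASXL1-202 (-0.16 to 1.29), EIF1AX-201 (-0.46 to 0.15), OGT-202 (-0.12 to 0.22) and SF3B1-201 (-0.01 to 0.10), and against the rest of the gene for ASXL1-201 (-1.04 to 2.14) and HCFC1-202 (-0.10 to 0.41). With sums made equal EIF1AX-201 was 0.04, and with medians made equal OGT-202 was -0.03 and SF3B1-201 -0.01. None of these was called.

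Same-numbered libraries of the 2 groups had correlations of deviations of -0.10, 0.02 and -0.04. No library correlated best with its own number, so the numbers were not taken as pairs. With the replicate block 4789 genes were called, ASXL1 among them (adjusted p = 0.0338), and ASXL2-201 was called (0.0367) while ASXL2-203 was not (0.0968). Against the rest of the gene, neither ASXL2 transcript was called with the block (0.244).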
